A study of Mus musculus with 206 samples.

Results

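Immediate early genes are switched on in neurons within minutes of synaptic activity or another stimulus, without new protein synthesis, and include 10 genes that were followed here at the level of chromatin. Fos, Fosb and Junb encode subunits of the transcription factor AP-1, Egr1 and Egr3 encode zinc finger factors, Nr4a1 encodes an orphan nuclear receptor and Npas4 encodes a bHLH-PAS factor found mainly in neurons. Arc encodes a synaptic protein that takes part in the removal of AMPA receptors, Dusp1 a phosphatase that switches off MAP kinases, and Btg2 an antiproliferative cofactor. The genes were taken by name. Regions were chosen by position: of 108274 consensus regions of the histone mark H3K27ac in 4 brain regions, 130 had a member as the gene with the nearest protein-coding transcription start site (TSS) within 100 kb. Promoters, taken as 1 kb either side of a TSS, were compared for the 10 members among 21837 protein-coding genes. A region assigned by distance is not shown to act on that gene.

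H3K27ac, acetylation of lysine 27 of histone H3, marks active promoters and enhancers. In neurons, calcium entering through synaptic receptors and channels reaches kinases that act on CREB, SRF with its partners, and MEF2, which are bound at these genes before a stimulus arrives. Enhancers of Fos, Npas4 and Arc lie at some distance from the TSS and gain acetylation with activity, so that the mark can be read both at the TSS and farther out.

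The mark was mapped by MOWChIP-seq, a chromatin immunoprecipitation in a microfluidic chamber, in about 10000 nuclei per library, sorted for the neuronal protein NeuN from tissue punches of prefrontal cortex (PFC), hippocampus, hypothalamus and striatum. All animals were adult wild type C57BL/6NTac mice of both sexes, and all had been moved at birth to drug-naive foster mothers. Perinatal morphine (MOR) was given to the dam at 10 mg/kg/day by osmotic minipump, and to the pup by subcutaneous injection of 10 mg/kg, morning and evening, from postnatal day 1 to 14. Controls received saline (SAL) by the same routes. In adulthood each animal was injected with saline or with lipopolysaccharide (LPS), a bacterial cell wall component that sets off innate immune signalling, and brains were taken 2 h later. Groups are named by perinatal and then adult treatment: PFC had 8 libraries of SAL-SAL animals, 9 of MOR-SAL animals, 11 of SAL-LPS animals and 14 of MOR-LPS animals, with, in the same order, 11, 11, 12 and 10 in hippocampus, 8, 12, 11 and 10 in hypothalamus, and 10, 7, 13 and 15 in striatum. All 4 groups shared injection and handling, so that even SAL-SAL animals had been injected 2 h before death. Library preparation used xGen 2S for PFC and ThruPLEX for the rest, so the kit and PFC cannot be told apart.

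The deposited files give peaks with their −log10 p and no read counts, and lists ran from 10811 to 143527 peaks per library. Each region or promoter was therefore given, in every library, the −log10 p of the strongest peak touching it, and was ranked from 0 to 100 among all regions, or all genes, of that library. Sites that no peak touches are tied at a rank set by the length of the list, between 13.0 and 46.9 for promoters. A rank compares a site with the other sites of its own library and says nothing of a change in the total amount of acetylation.

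The sort was checked with promoter peaks among the 10000 strongest peaks of each library. Map2, a dendritic protein of neurons, had such a peak in 40 of 42 libraries in PFC, 39 of 44 in hippocampus, 37 of 41 in hypothalamus and 43 of 45 in striatum. Rbfox3, which encodes NeuN itself, had it in 29, 35, 16 and 24. Map2 was among the highest of 10 neuron genes, whose mean share was 65.0% in PFC, 51.8% in hippocampus, 52.9% in hypothalamus and 46.2% in striatum. The lowest were Nefm, in 10, 6, 6 and 4 libraries in that order, Nefl (21, 11, 11 and 5) and Stmn2 (12, 7, 15 and 1). Of 8 astrocyte genes, Gfap, Aqp4, Aldh1l1 and Sox9 had it in 0 libraries, Slc1a2 in 6, 28, 14 and 6, Glul in 9, 8, 10 and 12, Slc1a3 in 4, 0, 2 and 2, and Gja1 in 1, 1, 0 and 0. Of 8 microglia genes only P2ry12 and Aif1 had it, each in 1 hippocampus library. Genes of oligodendrocytes, the myelin-forming glia that lack NeuN, did not follow the label: in 11 of 172 libraries at least 40% of a list of 10 oligodendrocyte genes (Mbp, Mog, Mag and others) had such a peak. Striatum held 7 of these 11 libraries, namely MOR-LPS females 16-0 (80%), 15-3 (90%), 16-2 (90%) and 7-1 (100%), MOR-LPS male 14-4 (50%), SAL-LPS female 10-4 (40%) and SAL-SAL female 9-4 (100%). The others were SAL-SAL female 9-4 (100%) and MOR-LPS male 14-4 (60%) in PFC, SAL-LPS female 10-4 (50%) in hippocampus and SAL-SAL female 9-4 (50%) in hypothalamus. The Fos region called in striatum and a Dusp1 interaction there are given with and without these libraries. Other results, among them the brain region comparisons of promoters, include them unless stated. Lists for the dissected areas did not always follow the label either. PFC libraries had on average 42.9% of 6 striatum genes (Drd1 in 29 of 42) and 28.6% of 4 cortex genes, while striatum libraries had 28.9% of the striatum genes (Drd1 in 14 of 45). Hypothalamus libraries had 4.18% of 7 hypothalamus genes, with Hcrt in 12 of 41 and the other 6 (Nkx2-1, Sim1, Agrp, Pomc, Avp and Oxt) in 0, against 19.5% of 4 thalamus genes (Slc17a6 in 20 of 41). Hippocampus libraries had 27.8% of 4 hippocampus genes and 38.6% of the cortex genes. The part of these shares in the differences between brain regions was not tested. In tissue from many cells, fewer nuclei of a type and less of the mark per nucleus cannot be told apart.

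Promoter sequences, from 250 bases before to 50 bases after the start, were available for 7 members from RefSeq (GRCm38.p6), and 4 are printed because their promoters differed most between brain regions or, for Fos, carried the mark least often over all libraries. Capitals mark the letters TGACG, the core of the cAMP response element (CRE) that CREB binds, on either strand. They lie at chr12:85473640-85473939 on the + strand (Fos), and on the − strand at chr7:19309996-19310295 (Fosb), chr8:84978699-84978998 (Junb) and chr19:4989922-4990221 (Npas4). The RefSeq start is not always the TSS used for ranks and regions. The Npas4 window lies wholly downstream of that TSS (chr19:4990316), and the Nr4a1 window, not printed, is at the second of its TSSs (chr15:101266846).
Fos promoter: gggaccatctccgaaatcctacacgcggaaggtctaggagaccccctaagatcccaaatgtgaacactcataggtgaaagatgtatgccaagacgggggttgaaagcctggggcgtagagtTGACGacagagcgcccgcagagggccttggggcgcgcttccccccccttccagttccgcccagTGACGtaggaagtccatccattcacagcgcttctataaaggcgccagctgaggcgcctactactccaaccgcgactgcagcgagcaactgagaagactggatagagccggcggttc
Fosb promoter: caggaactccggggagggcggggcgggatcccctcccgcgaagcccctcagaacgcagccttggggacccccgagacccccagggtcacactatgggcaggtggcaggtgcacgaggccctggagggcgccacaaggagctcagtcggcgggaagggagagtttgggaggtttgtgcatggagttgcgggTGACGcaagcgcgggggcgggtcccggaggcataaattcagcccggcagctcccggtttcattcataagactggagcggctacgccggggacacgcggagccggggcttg
Junb promoter: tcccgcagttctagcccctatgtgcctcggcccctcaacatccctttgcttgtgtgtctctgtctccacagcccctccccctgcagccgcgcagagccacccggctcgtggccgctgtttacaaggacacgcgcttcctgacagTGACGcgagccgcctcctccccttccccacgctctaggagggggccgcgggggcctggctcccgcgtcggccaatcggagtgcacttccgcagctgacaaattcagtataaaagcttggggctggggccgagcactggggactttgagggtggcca
Npas4 promoter: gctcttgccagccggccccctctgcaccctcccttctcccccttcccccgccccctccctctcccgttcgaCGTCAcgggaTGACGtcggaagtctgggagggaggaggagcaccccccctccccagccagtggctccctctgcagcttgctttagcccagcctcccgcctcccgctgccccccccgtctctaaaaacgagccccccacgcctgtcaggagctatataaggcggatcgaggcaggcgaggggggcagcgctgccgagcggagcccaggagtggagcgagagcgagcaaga
TGACG was present on either strand in 7 of 7 member promoters (these 4, Nr4a1, Dusp1 and Btg2) and in 20.81% of 32851 promoters of the same length. The palindrome TGACGTCA, which contains TGACG, was present in Dusp1 and Btg2, against 1.79% of all promoters. TATAAA, searched on the promoter's own strand only, was found in Fos and Junb, against 8.319% of all promoters. The AP-1 motif TGANTCA (7.808% of all promoters) and the CArG box, the SRF motif (1.629%), were in 0 of the 7 windows, which says only that these letters are not in these 300 bases. Member promoters had a GC content of 58.67 to 72.33%, above the median of 52.67% over all promoters.

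From the distal regions 3 are printed for the results that turn on them, as their central 200 bases on the + strand (GRCm38.p6). The Npas4 region is the upstream region whose rank differed between MOR-LPS and SAL-LPS in hypothalamus (chr19:4995391-4995590), the Fos downstream region differed in striatum (chr12:85518774-85518973), and the Fos upstream region had a peak in every striatum library (chr12:85455748-85455947). The motifs searched above were present in 0 of these 3 windows.
Npas4 upstream region, centre: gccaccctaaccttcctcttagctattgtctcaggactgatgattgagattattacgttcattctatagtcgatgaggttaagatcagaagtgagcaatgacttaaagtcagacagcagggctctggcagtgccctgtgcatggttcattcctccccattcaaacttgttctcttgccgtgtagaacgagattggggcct
Fos downstream region, centre: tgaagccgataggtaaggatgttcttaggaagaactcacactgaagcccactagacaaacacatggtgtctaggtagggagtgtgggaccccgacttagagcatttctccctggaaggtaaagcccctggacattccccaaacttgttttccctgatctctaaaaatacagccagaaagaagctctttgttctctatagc
Fos upstream region, centre: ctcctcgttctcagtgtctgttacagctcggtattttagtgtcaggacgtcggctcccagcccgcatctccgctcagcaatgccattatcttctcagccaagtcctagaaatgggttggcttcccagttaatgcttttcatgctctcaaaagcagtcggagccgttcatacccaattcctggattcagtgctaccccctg
Over all member regions the central 200 bases held TGACG in 8 of 32 in PFC (9.983% of all PFC regions), 4 of 24 in hippocampus (8.284%), 5 of 22 in hypothalamus (10.02%) and 8 of 52 in striatum (8.812%).

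The 130 member regions were 32 of 18272 in PFC, 24 of 16201 in hippocampus, 22 of 13788 in hypothalamus and 52 of 60013 in striatum. Their midpoints lay between genes in 69, in introns in 41 and in exons in 20. Merged across brain regions they formed 45 positions, of which 16 occurred in all 4 lists, 5 in 3, 9 in 2 and 15 in 1, and 14 of these last were in striatum, whose list is the longest. Members with a region had a median of 3, 2.5, 3 and 5.5 regions each in PFC, hippocampus, hypothalamus and striatum, against 1, 1, 1 and 2 over all genes with a region. The median share of libraries with a peak was 92.9% over member regions and 88.1% over all regions in PFC, 85.2% and 81.8% in hippocampus, 86.6% and 75.6% in hypothalamus, and 64.4% and 40% in striatum.

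**Figure D1:**
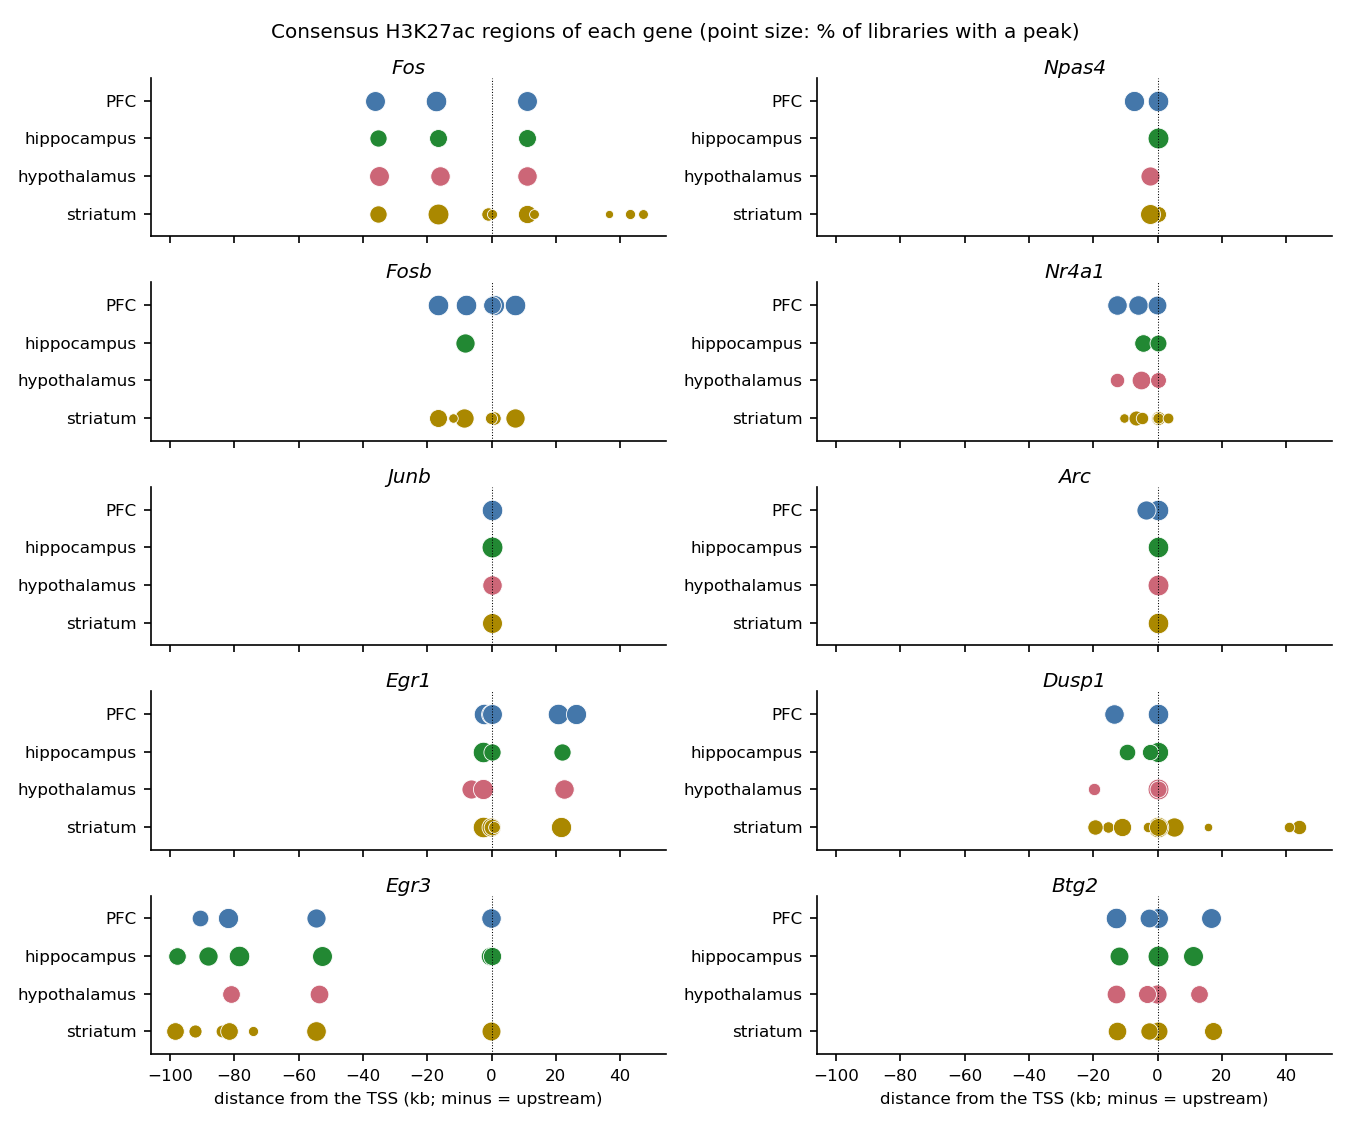
Position of each member's consensus regions relative to its TSS (kb, negative values upstream) in the 4 brain regions, with point size giving the percent of libraries with a peak. Fos shows 3 positions away from the TSS that recur in every brain region, Arc and Junb carry regions over the TSS, and Egr3 in hypothalamus has only regions over 50 kb upstream.

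Among the AP-1 genes, Fos carried the mark mainly away from its TSS. Regions about 35 kb upstream, 17 kb upstream and 11 kb downstream were present in all 4 lists, whereas a region over the TSS was present only in striatum, with a peak in 12 of 45 libraries. The region 16.6 kb upstream had a peak in 45 of 45 striatum libraries, with ranks of 70.6, 95.0 and 99.7 (lowest, median and highest). Its counterparts had a peak in 41 of 42 PFC libraries (median rank 89.4), 37 of 41 hypothalamus libraries (79.6) and 35 of 44 hippocampus libraries (78.5). Fosb had no region in hypothalamus, and in hippocampus a single one 8.3 kb upstream with a peak in 39 of 44 libraries. Junb had exactly 1 region in each list, over the TSS, with a peak in all 44 hippocampus libraries, 41 of 42 PFC, 42 of 45 striatum and 37 of 41 hypothalamus libraries.

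Of the other factors, Egr1 had a region 2.3 to 2.7 kb upstream in all 4 lists, with a peak in 41 of 42, 43 of 44, 39 of 41 and 44 of 45 libraries in the same order, and another 20.8 to 22.6 kb downstream. Egr3 in hypothalamus had no region near its TSS. Its hypothalamic regions lay 53.7 and 80.9 kb upstream, in introns of Pebp4, with a peak in 35 and 32 of 41 libraries. Npas4 had a region of 13.9 kb over its TSS in 44 of 44 hippocampus libraries, and in hypothalamus a single region 2.3 kb upstream, with a peak in 36 of 41. Nr4a1 had regions over its TSS in every brain region except PFC, where the nearest began 0.2 kb upstream and had a peak in 36 of 42 libraries.

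Of the effectors, Arc lay in a broad domain over the TSS, 17.2 kb wide in PFC, 22.7 kb in hippocampus, 21.1 kb in hypothalamus and 22.04 kb in striatum. It had a peak in 41 of 42, 43 of 44, 41 of 41 and 44 of 45 libraries. Dusp1 had 18 regions in all, some of them in introns of Ergic1, and Btg2 had 16, among them a region 11.9 to 12.9 kb upstream in each list.

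Promoters compare the same window in every brain region, and there 8 of the 10 members had their lowest median rank in hypothalamus, the exceptions being Fos and Nr4a1. A promoter peak of Egr3 was found in 35 of 42 libraries in PFC, 35 of 44 in hippocampus, 26 of 45 in striatum and 1 of 41 in hypothalamus. Npas4 went from 41 of 42 in PFC to 18 of 41 in hypothalamus, and Fosb from 36 of 42 to 8 of 41. Over all genes the median share of libraries with a promoter peak was 61.9% in PFC, 45.5% in hippocampus, 43.9% in hypothalamus and 37.8% in striatum. Btg2 (39, 40, 39 and 39 libraries of PFC, hippocampus, hypothalamus and striatum) and Dusp1 (40, 41, 38 and 42) had a promoter peak in most libraries everywhere.

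**Figure D2:**
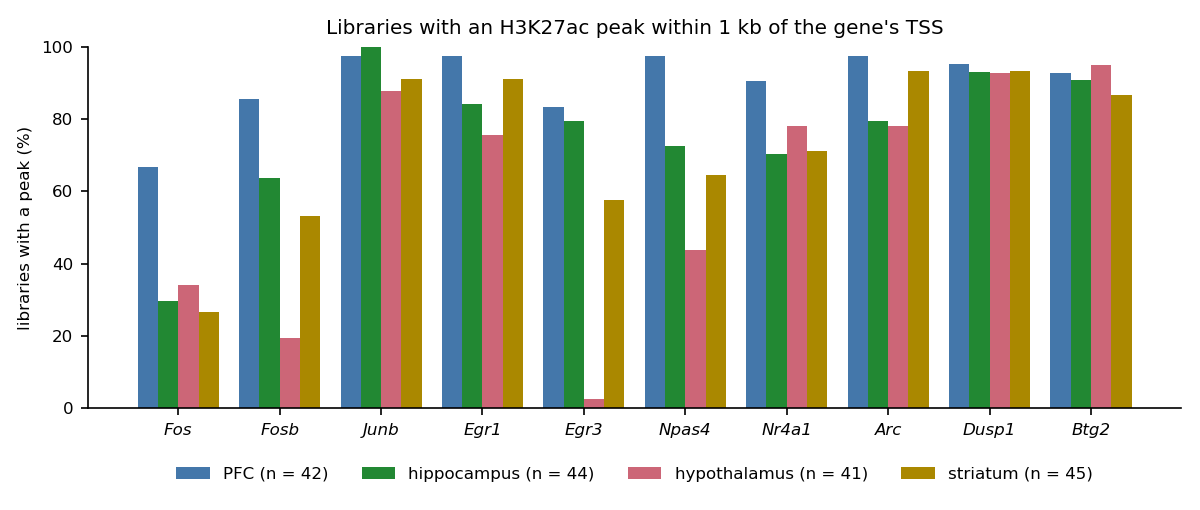
Percent of libraries with a peak within 1 kb of the TSS (y axis, from 0) for each member in PFC, hippocampus, hypothalamus and striatum (bars; 42, 44, 41 and 45 libraries). Egr3 is at 35 of 42 libraries in PFC and 1 of 41 in hypothalamus, and Fos is at 28 of 42 in PFC and at most 14 in each of the other brain regions.

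Limma across 16299 genes, with brain region, treatment and sex as terms, gave many differences between brain regions, so the members' counts are read against the share over all genes. Hypothalamus was below PFC for 9 of 10 members (53.4% of all genes called in either direction), below hippocampus for 5 (21.5%) and below striatum for 6 (13.9%). Hippocampus was below PFC for 4 members (48.7%) and striatum below PFC for 5 (48.4%). Striatum was below hippocampus for Junb alone (16.1%). No member was called in the opposite direction in any of the 6 pairs. The members' median difference was −16.8 for hypothalamus minus PFC against 2.87 over all genes, −11.2 for hypothalamus minus hippocampus against −0.0877, and 12.7 for striatum minus hypothalamus against 0.803. For hippocampus minus PFC it was −8.25 against 2.19, for striatum minus PFC −6.87 against 2.13, and for striatum minus hippocampus −4.0 against 1.18.

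Egr3 had the widest gap between hypothalamus and hippocampus of the 10 members. Its rank (lowest, median and highest) was 18.2, 63.0 and 93.9 in PFC, 30.6, 69.3 and 98.9 in hippocampus, 13.0, 28.4 and 78.0 in hypothalamus, and 19.8, 59.6 and 98.5 in striatum. Hypothalamus was low in nearly every library, at a tied rank without a peak, and the ranges overlapped. The fitted difference was −36.4 rank points for hypothalamus minus hippocampus (SE 4.37, limma adjusted p = 7.87e-13) and −33.1 for hypothalamus minus PFC (SE 4.42, adjusted p = 6.42e-11), and 27.5 for striatum minus hypothalamus (SE 4.37, adjusted p = 1.83e-07). Differences of Egr3 among PFC, hippocampus and striatum did not pass the test, the largest being −8.83 for striatum minus hippocampus (adjusted p = 0.160). Many animals gave libraries from several brain regions: Egr3 was lower in hypothalamus than in hippocampus of the same animal in 22 of 22 animals, than in PFC in 22 of 24 and than in striatum in 20 of 25. When only the 10000 strongest peaks of each library were ranked, Egr3 had −10.8 for hypothalamus minus hippocampus (adjusted p = 0.0395), and the calls ended for hypothalamus minus PFC (−7.54, adjusted p = 0.0775) and striatum minus hypothalamus (8.10, adjusted p = 0.196). The last also ended in SAL-SAL libraries alone (28.1, adjusted p = 0.109).

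Fosb ranked at 16.7, 89.1 and 99.7 in PFC, 21.0, 76.8 and 99.8 in hippocampus, 13.0, 31.2 and 97.2 in hypothalamus, and 19.8, 59.6 and 99.6 in striatum. Medians differed while ranges overlapped almost wholly. The difference was −38.9 for hypothalamus minus PFC (SE 5.31, adjusted p = 1.55e-10), −28.9 for hypothalamus minus hippocampus (SE 5.25, adjusted p = 2.48e-06), 20.1 for striatum minus hypothalamus (adjusted p = 0.00279) and −18.8 for striatum minus PFC (adjusted p = 0.00200). PFC and hippocampus did not differ beyond their spread (−9.98, SE 5.23, adjusted p = 0.100). With 10000 peaks per library Fosb had −25.7 for hypothalamus minus PFC (adjusted p = 5.84e-06), −15.0 for hypothalamus minus hippocampus (adjusted p = 0.0281) and 8.60 for striatum minus hypothalamus, no longer called (adjusted p = 0.343), and striatum minus PFC was −4.19 in SAL-SAL libraries alone (adjusted p = 0.876).

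Npas4, a factor induced by neuronal activity almost alone, followed the same order. Its rank was 46.9, 86.3 and 99.3 in PFC, 17.1, 78.9 and 98.2 in hippocampus, 13.0, 40.3 and 95.1 in hypothalamus, and 19.8, 64.9 and 98.6 in striatum. In PFC 41 of 42 libraries had a peak. The lowest PFC rank is the tied rank of the library without one, MOR-SAL male 13-1, whose list was short (11306 peaks). Hypothalamus minus PFC was −38.2 (SE 4.57, adjusted p = 4.70e-13) and hypothalamus minus hippocampus −22.3 (SE 4.52, adjusted p = 2.88e-05). Within animals Npas4 was lower in hypothalamus than in PFC in 22 of 24, than in hippocampus in 16 of 22 and than in striatum in 21 of 25. Striatum minus hypothalamus was 16.3 (adjusted p = 0.00536), striatum minus PFC −21.9 (adjusted p = 5.27e-05) and hippocampus minus PFC −15.9 (adjusted p = 0.00239), while striatum and hippocampus did not differ beyond their spread (−5.98, SE 4.44, adjusted p = 0.416). With 10000 peaks per library striatum minus hypothalamus was 10.4 for Npas4 (adjusted p = 0.153) and hypothalamus minus hippocampus −13.3 (adjusted p = 0.0316), and in SAL-SAL libraries alone striatum minus PFC was −8.42 (adjusted p = 0.655) and hippocampus minus PFC −4.86 (adjusted p = 0.760).

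Junb had a promoter peak in 162 of 172 libraries, 1 more than Dusp1, with Btg2 and Dusp1 above it in hypothalamus. Ranks were 46.9, 96.4 and 99.7 in PFC, 83.9, 96.1 and 99.9 in hippocampus, 31.1, 81.2 and 99.1 in hypothalamus, and 31.7, 93.4 and 99.5 in striatum. All 44 hippocampus libraries stayed above 80, whereas hypothalamus reached far lower. Hypothalamus minus hippocampus was −19.8 (SE 3.02, adjusted p = 1.52e-08), with the hypothalamus lower in 21 of 22 animals, and hypothalamus minus PFC was −18.0 (SE 3.05, adjusted p = 1.97e-07), lower in 18 of 24 animals. Against striatum it was lower in 15 of 25 animals. Striatum was below hippocampus (−9.96, adjusted p = 0.00906) and PFC (−8.19, adjusted p = 0.0168) and above hypothalamus (9.84, adjusted p = 0.0140). PFC and hippocampus did not differ beyond their spread (1.77, SE 3.00, adjusted p = 0.634). With 10000 peaks per library Junb differed more, by −31.7 for hypothalamus minus hippocampus and −33.6 for hypothalamus minus PFC, and in SAL-SAL libraries alone the 3 striatum differences were not called (adjusted p = 0.575 against PFC, 0.208 against hippocampus and 0.201 against hypothalamus).

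Arc and Egr1 were lower in hypothalamus than in PFC and striatum. Arc had median ranks of 89.2 in PFC, 84.2 in hippocampus, 70.3 in hypothalamus and 88.2 in striatum. Hypothalamus minus PFC was −19.4 (SE 3.87, adjusted p = 1.08e-05) and striatum minus hypothalamus 15.8 (adjusted p = 0.00107). In SAL-SAL libraries alone striatum minus hypothalamus was not called for Arc (21.5, adjusted p = 0.0988). Egr1 had medians of 81.1, 83.7, 65.9 and 82.7, with differences of −15.6 from PFC (adjusted p = 0.000554) and −14.6 from hippocampus (adjusted p = 0.00231). Striatum minus hypothalamus was 15.65 (adjusted p = 0.0017). With 10000 peaks per library the hippocampus (−11.8, adjusted p = 0.106) and striatum (13.1, adjusted p = 0.0950) differences were not called. In SAL-SAL libraries alone no Egr1 difference of hypothalamus was called (adjusted p = 0.235 for PFC, 0.105 for hippocampus, 0.411 for striatum). Nr4a1 was highest in PFC (median 83.0, against 70.6, 68.6 and 64.9) and called against each of the other brain regions. The largest difference was −13.9 for striatum (adjusted p = 0.00658). In SAL-SAL libraries alone no Nr4a1 difference from PFC was called (adjusted p = 0.891 for hippocampus, 0.553 for hypothalamus, 0.575 for striatum). Dusp1 was called only between hypothalamus and PFC (−7.68, adjusted p = 0.0397). The Dusp1 promoter rank takes the strongest peak over all its TSSs, and the annotated 5′ end (chr17:26562128) lies far upstream of the main TSS (chr17:26508472). At that 5′ end alone, which leaves out the main TSS, hypothalamus minus PFC was 0.801 (adjusted p = 0.887). With 10000 peaks per library it was −21.8 (adjusted p = 0.000135). There Dusp1 was also called for hippocampus minus PFC (−21.7), striatum minus hippocampus (17.4) and striatum minus hypothalamus (17.4). Btg2 was called in none of the 6 pairs (−3.30 for hypothalamus minus PFC, adjusted p = 0.446).

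Over all 172 libraries Fos had a promoter peak in 67, the fewest of the 10, though Egr3 and Fosb were lower in hypothalamus. Ranks were 19.9, 55.4 and 91.7 in PFC, 19.8, 34.8 and 86.1 in hippocampus, 17.5, 34.9 and 91.2 in hypothalamus, and 20.6, 35.1 and 78.8 in striatum, with a peak in 28, 13, 14 and 12 libraries. PFC was above the other brain regions, which lay together. The differences from PFC were −11.9 (hippocampus, SE 4.05, adjusted p = 0.0114), −10.7 (hypothalamus, adjusted p = 0.0229) and −13.2 (striatum, adjusted p = 0.00475). These fits included the libraries with at least 40% of the oligodendrocyte list. In SAL-SAL libraries alone none of these differences was called for Fos (adjusted p = 0.184, 0.700 and 0.377 in that order). The hypothalamus difference turned to 13.8 with a promoter window of 2 kb (adjusted p = 0.0103), the striatum difference turned to 0.419 there (adjusted p = 0.948), and the hippocampus difference turned to 0.366 in lists of 10000 peaks (adjusted p = 0.874).

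**Figure D3:**
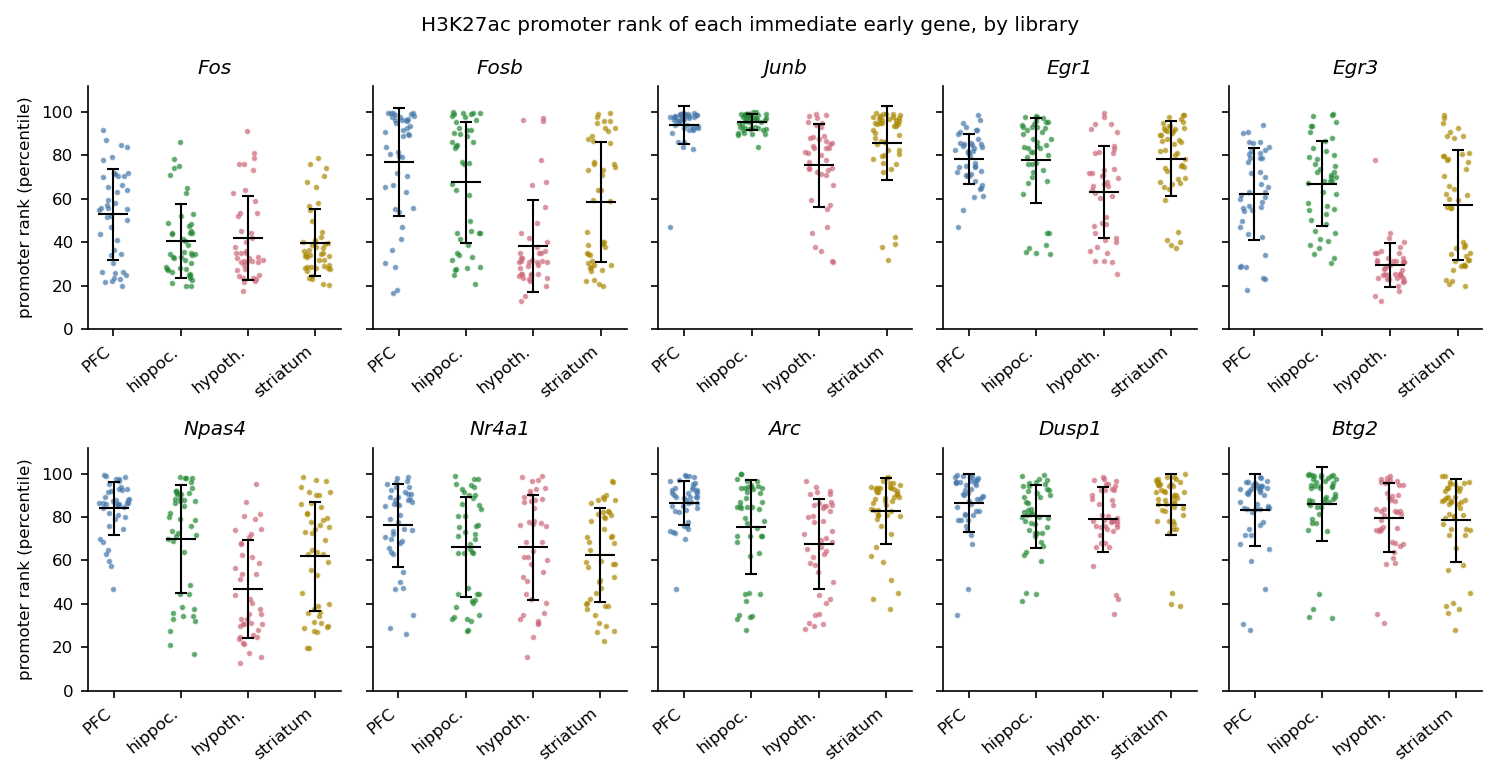
Promoter rank (0 to 100, 1 point per library, bars for mean ± SD) of each member in the 4 brain regions. Egr3, Fosb and Npas4 libraries of hypothalamus gather near the tied rank of promoters without a peak, while Junb in hippocampus stays between 83.9 and 99.9.

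Fos also differed from the other members in libraries with many oligodendrocyte genes. Its promoter had a peak in 10 of the 11 libraries with at least 40% of that list and in 57 of the other 161. Within striatum this was 7 of 7 against 5 of 38, with median Fos ranks of 58.04 and 34.07, and within PFC 2 of 2 against 26 of 40. Within hippocampus it was 1 of 1 against 12 of 43, and within hypothalamus 0 of 1 against 14 of 40. Over all libraries peaks at Npas4 went the other way, in 5 of 11 against 115 of 161. Egr3 (5 of 11 against 92 of 161) and Fosb (5 of 11 against 91 of 161) did the same. By brain region the contrast was uneven. Within striatum Npas4, Egr3 and Fosb had a peak in 3 of 7 each, against 26, 23 and 21 of 38. In the same order PFC had 2 of 2, 1 of 2 and 1 of 2, against 39, 34 and 35 of 40. Hippocampus had 0 of 1, 1 of 1 and 1 of 1, against 32, 34 and 27 of 43. Hypothalamus had 0 of 1 each, against 18, 1 and 8 of 40. Junb, Arc, Btg2 and Dusp1 had a peak in 11 of 11, against 151, 139, 146 and 150 of 161. Egr1 had a peak in 10 of 11 against 140 of 161, and Nr4a1 in 8 of 11 against 125 of 161. These counts were made after the values were seen and have no test, and the 11 libraries include several from the same animals.

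Promoter ranks of the members moved together only weakly over libraries. After centring on brain region and group, the correlation of member pairs had a median of 0.0684 (−0.139 to 0.322, 45 pairs, 172 libraries). Over pairs of all genes with a peak in at least 80% of libraries the median was 0.114. Only 5 members had a peak in at least 80% of libraries, while the member pairs took in every member. These medians come from unlike sets, so they do not show whether members moved together less than other genes. Among the genes outside the list whose rank was most like the members' mean were Dagla (Pearson r = 0.431), Zscan18 (0.431), Fmc1 (0.423) and Rnf150 (0.414), of 2700 genes compared over 172 libraries. Libraries share depth, and the members' mean had r = 0.356 with the log10 number of peaks.

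Treatments were compared at the consensus regions of each brain region, by limma on region ranks with group and sex as terms and Benjamini-Hochberg adjustment over all regions of that list. Of 650 tests of member regions, 2 passed at an adjusted p under 0.05 (0.308%), and 64 had an unadjusted p under 0.05 (9.85%). Over all 541370 tests these shares were 0.551% and 11.3%, both above the members' own. The groups overlapped at every member region. The standard error of a difference had a median of 9.80 rank points (3.79 to 16.8), so that differences of a few points were not detectable. Neither of the 2 called regions passed when all lists were reduced to equal length.

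**Figure D4:**
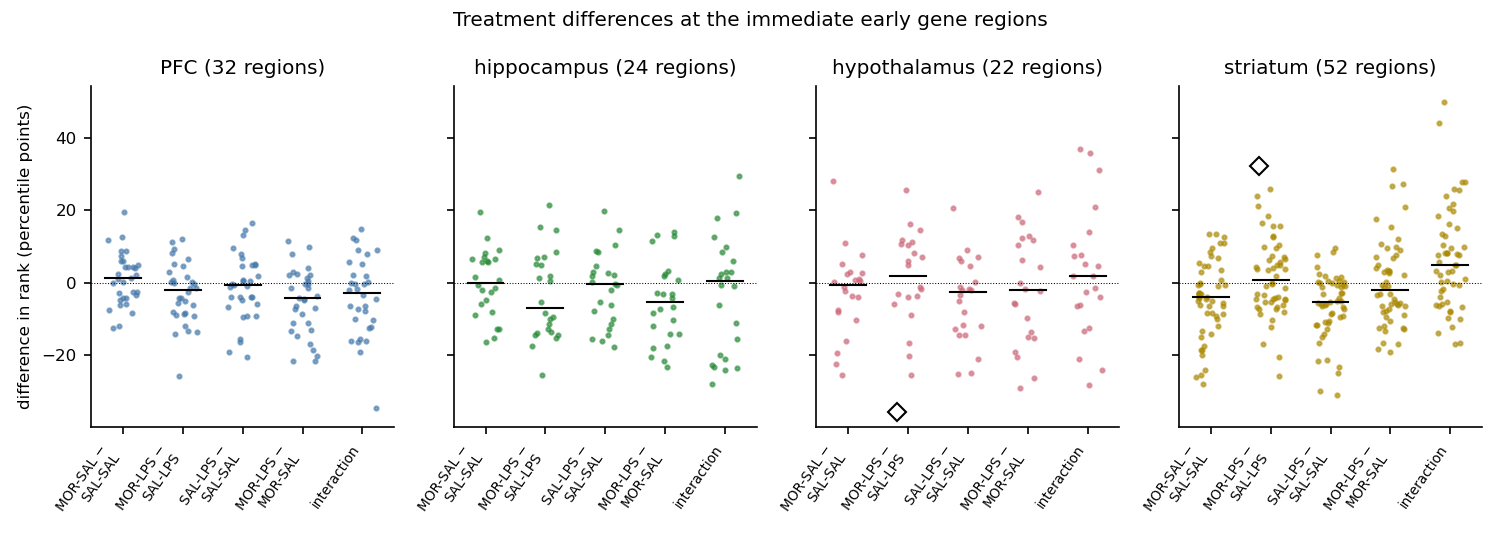
Difference in region rank for each member region (points) in 5 comparisons per brain region, with a line at the median and open diamonds for called regions. Medians stay between −6.90 and 4.82 rank points, and the called regions are 1 in hypothalamus and 1 in striatum, both for MOR-LPS minus SAL-LPS.

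In hypothalamus, 1 of 22 member regions was called for MOR-LPS minus SAL-LPS, where 4.31% of all regions were called. An unadjusted p under 0.05 was found at 4 member regions (18.2%, against 21.3% of all regions). The called region lay 2.3 kb upstream of Npas4 between genes (chr19:4992647-4998335), the only Npas4 region of that list. Ranks (lowest, median and highest) were 18.9, 70.3 and 97.1 for SAL-SAL and 24.8, 68.5 and 96.9 for MOR-SAL animals, 40.9, 81.4 and 98.9 for SAL-LPS animals, and 4.69, 37.0 and 91.4 for MOR-LPS animals. MOR-LPS reached lowest, and the groups overlapped. How low a rank can reach depends on list length, and MOR-LPS lists were longer (median 70449.5 peaks, against 48152 in SAL-LPS). The lowest MOR-LPS libraries, females 16-4 and 15-1 (119814 and 97243 peaks), ranked at 25.3 and 25.2 in lists of equal length. A peak was present in 7 of 8, 11 of 12, 11 of 11 and 7 of 10 libraries. The means were 42.0 ± 28.9 (SD, n = 10) in MOR-LPS and 78.4 ± 20.2 (n = 11) in SAL-LPS, a fitted difference of −35.7 (SE 10.5, limma adjusted p = 0.0315), with 8 of 10 MOR-LPS libraries below the SAL-LPS mean.

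The difference was of similar size in females (−37.2, 6 against 6) and males (−34.5, 4 against 5), and was −32.5 in lists of equal length (adjusted p = 0.0849). Neuron genes had a top peak in 44.0% of their list on average in MOR-LPS (10 to 80%) and 56.4% in SAL-LPS (20 to 100%), and oligodendrocyte genes in 8.0% (0 to 30%) and 4.55% (0 to 20%). Over 41 libraries the Npas4 region rank had r = 0.440 with the neuron share and −0.490 with the oligodendrocyte share, descriptions over libraries that also differ in depth. With the marker shares as terms the difference was −28.5 (adjusted p = 0.210), and 0 regions of any gene were called in this comparison. Leaving out any of 10 libraries ended the call: MOR-LPS females 15-1 (adjusted p = 0.0751), 15-3 (0.0542) and 16-4 (0.0735), MOR-LPS males 14-0 (0.0568), 14-4 (0.0808) and 6-0 (0.0581), and SAL-LPS females 10-0 (0.0504), 10-2 (0.0657), 2-0 (0.0622) and 3-1 (0.0673). The difference itself stayed between −35.1 and −32.1 in these 10 fits.

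For the other hypothalamus comparisons 0 of 22 member regions were called by limma. The share of all regions called was 0% for MOR-SAL minus SAL-SAL, 0.305% for SAL-LPS minus SAL-SAL and 3.84% for MOR-LPS minus MOR-SAL. It was 1.86% for the interaction of perinatal and adult treatment. In that order 3, 2, 3 and 2 member regions had an unadjusted p under 0.05. Over all hypothalamus regions the share with an unadjusted p under 0.05 was 8.04%, 12.2%, 20.4% and 18.8% in the same order. The nearest was a Fos region 34.9 kb upstream in MOR-LPS minus MOR-SAL. It ranked at 16.9, 42.6 and 82.3 in MOR-LPS and 32.4, 82.1 and 96.7 in MOR-SAL, a difference of −29.2 (SE 10.1, adjusted p = 0.0700). It passed without MOR-LPS female 7-1 (adjusted p = 0.0492), MOR-LPS male 13-2 (0.0279) or MOR-SAL female 15-4 (0.0341), and without sex in the fit (−30.0, adjusted p = 0.0447). A Dusp1 region 19.7 kb upstream, in an intron, had a peak in 6 of 8 libraries of SAL-SAL, 4 of 12 of MOR-SAL, 2 of 11 of SAL-LPS and 5 of 10 of MOR-LPS. Its differences were −25.5 for MOR-SAL minus SAL-SAL (adjusted p = 0.452), −25.3 for SAL-LPS minus SAL-SAL (0.233) and 35.8 for the interaction (0.123).

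In striatum, 1 of 52 member regions was called for MOR-LPS minus SAL-LPS, where 2.32% of all regions were called. An unadjusted p under 0.05 was found at 11 member regions (21.2%, against 20.4% of all regions). The called region lay 43.2 kb downstream of Fos between genes (chr12:85517073-85520675). Ranks were 19.9, 32.2 and 96.6 in SAL-SAL, 25.3, 29.4 and 36.4 in MOR-SAL, 18.0, 29.99 and 88.0 in SAL-LPS and 13.3, 76.5 and 97.9 in MOR-LPS. MOR-LPS libraries were split between high and low, and the groups overlapped. A peak was present in 3 of 10, 0 of 7, 1 of 13 and 8 of 15 libraries. The means were 59.8 ± 36.0 (SD, n = 15) in MOR-LPS and 33.4 ± 17.9 (n = 13) in SAL-LPS, a fitted difference of 32.3 (SE 8.63, adjusted p = 0.0345), and 23.8 in lists of equal length (adjusted p = 0.123).

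The libraries with a peak at this Fos region were to a large extent those with many oligodendrocyte genes. It had a peak in 7 of 7 striatum libraries with at least 40% of the oligodendrocyte list (ranks 88.0 to 97.9) and in 5 of 38 others (median rank 28.5). MOR-LPS libraries had a mean oligodendrocyte share of 31.3 ± 38.9% (0 to 100%), against 7.69 ± 10.9% (0 to 40%) for SAL-LPS, and the region rank had r = 0.751 with it over 45 libraries. Without the 7 libraries the difference was 17.3 (adjusted p = 0.771), with a peak in 3 of 10 MOR-LPS and 0 of 12 SAL-LPS libraries. With marker shares as terms it was 15.4 (adjusted p = 0.807). MOR-LPS and SAL-LPS females had mean ranks of 82.1 (n = 7) and 34.9 (n = 10), males 40.4 (n = 8) and 28.2 (n = 3), with a peak in 6 of 7 female and 2 of 8 male MOR-LPS libraries. Leaving out MOR-LPS females 15-3 (adjusted p = 0.0857), 16-0 (0.0747), 16-2 (0.0729) or 7-1 (0.0835), MOR-LPS male 14-4 (0.0602), or SAL-LPS females 10-0 (0.0641), 10-2 (0.0630), 2-0 (0.0515), 3-1 (0.0557), 4-4 (0.0650) or 9-3 (0.0504) also ended the call, with the difference between 29.7 and 31.8.

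Other Fos regions of striatum followed the same split to different degrees. The region over the TSS had a peak in 7 of 7 libraries with at least 40% of the oligodendrocyte list and 5 of 38 others, the region 36.4 kb downstream in 5 of 7 and 1 of 38, and the region 47.0 kb downstream in 7 of 7 and 4 of 38. By contrast the region 16.6 kb upstream had a peak in 7 of 7 and 38 of 38, and the region 35.3 kb upstream in 6 of 7 and 28 of 38. The TSS region itself had a peak in 7 of 15 MOR-LPS and 2 of 13 SAL-LPS libraries, and in 2 of 7 MOR-SAL and 1 of 10 SAL-SAL libraries. The split was not particular to Fos. Nr4a1 regions 3.3 kb downstream (6 of 7 and 8 of 38) and over the second TSS (5 of 7 and 10 of 38) leaned the same way. So did the Dusp1 region 19.5 kb upstream (7 of 7 and 21 of 38). Other regions leaned the opposite way, such as the Egr3 region 83.8 kb upstream (0 of 7 and 20 of 38).

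**Figure D5:**
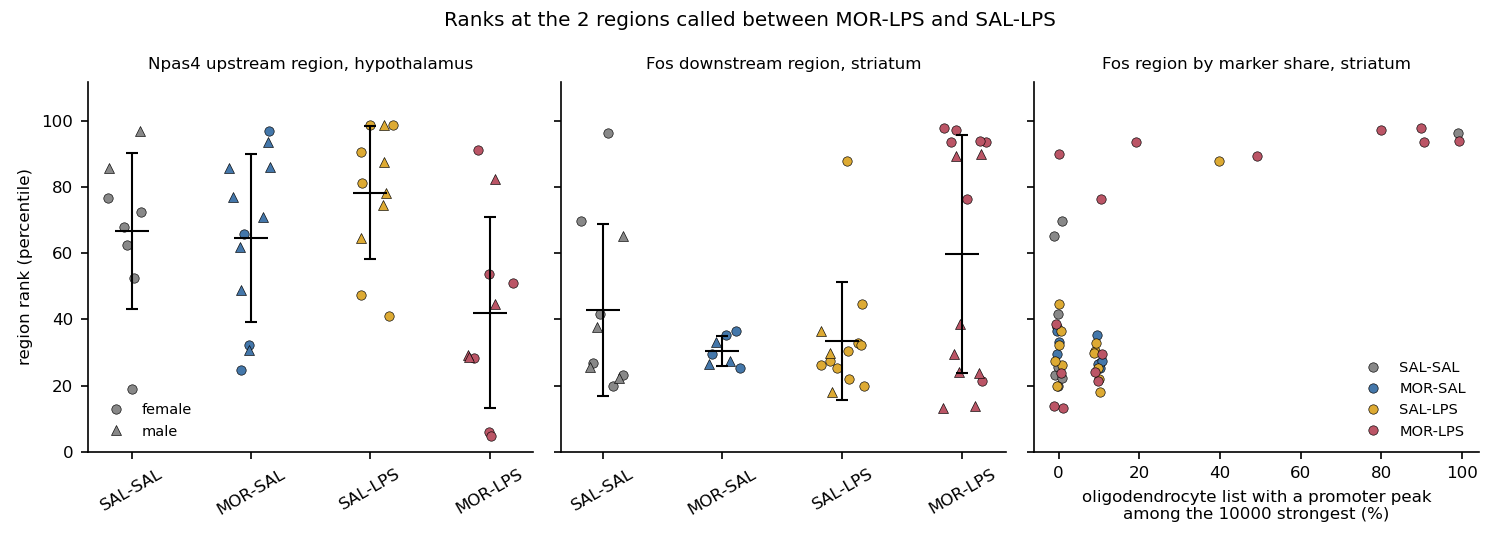
Region ranks (0 to 100) by treatment group for the Npas4 region in hypothalamus and the Fos region in striatum (points are libraries, symbols give sex, bars mean ± SD), and the Fos region rank against the percent of oligodendrocyte genes with a top peak. In the last panel the 7 libraries at 40% or more rank between 88.0 and 97.9.

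For the other striatum comparisons 0 of 52 member regions were called by limma. The share of all regions called was 0.00667% for MOR-SAL minus SAL-SAL, 0% for SAL-LPS minus SAL-SAL, 0.253% for MOR-LPS minus MOR-SAL and 0.0167% for the interaction. In that order 4, 7, 6 and 3 member regions had an unadjusted p under 0.05. Over all striatum regions the share with an unadjusted p under 0.05 was 5.57%, 5.10%, 17.3% and 14.5% in that order. A Dusp1 region 15.5 kb upstream had a peak in 9 of 15 MOR-LPS, 2 of 13 SAL-LPS, 0 of 7 MOR-SAL and 5 of 10 SAL-SAL libraries, an interaction of 50.02 (SE 14.0, adjusted p = 0.136). This Dusp1 region had a peak in 6 of the 7 libraries with at least 40% of the oligodendrocyte list and 10 of 38 others. Its interaction was 33.2 without those 7 (adjusted p = 0.770), 29.2 in lists of equal length (adjusted p = 0.504) and 40.7 with marker shares as terms (adjusted p = 0.764). The Nr4a1 region over its upstream TSS had a peak in 5 of 15, 10 of 13, 1 of 7 and 8 of 10 libraries of the same groups. Its ranks were 33.0, 55.4 and 97.8 in SAL-LPS and 17.0, 37.9 and 76.9 in MOR-LPS, a difference of −25.8 (SE 9.00, adjusted p = 0.0851). That fit included the 7 libraries with at least 40% of the oligodendrocyte list. The Nr4a1 region had a peak in 3 of those 7 and 21 of 38 others. A Fosb region 0.3 kb upstream had a peak in 7 of 10 SAL-SAL and 2 of 13 SAL-LPS libraries, with medians of 77.3 and 27.6 and a difference of −31.1 (SE 10.2, adjusted p = 0.964). The remaining regions of smallest p were the Fosb region 16.5 kb upstream for MOR-SAL minus SAL-SAL (−25.3, adjusted p = 0.789), the Fos region 35.3 kb upstream for SAL-LPS minus SAL-SAL (−29.8, adjusted p = 0.964) and the Fos region 43.2 kb downstream for MOR-LPS minus MOR-SAL (31.4, adjusted p = 0.104).

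In PFC 0 of 32 member regions and 0% of all regions were called by limma in any comparison. For MOR-SAL minus SAL-SAL, MOR-LPS minus SAL-LPS, SAL-LPS minus SAL-SAL, MOR-LPS minus MOR-SAL and the interaction, 0, 2, 3, 3 and 1 member regions had an unadjusted p under 0.05. Over all PFC regions the shares were 2.96%, 11.3%, 6.54%, 7.81% and 7.07%. The Npas4 region 7.4 kb upstream had the smallest p in 3 of these comparisons. It ranked at 61.0, 91.1 and 98.6 in SAL-LPS and 18.4, 68.3 and 94.6 in MOR-LPS, a difference of −25.8 (adjusted p = 0.126), and was −21.5 for MOR-LPS minus MOR-SAL (adjusted p = 0.466) and −34.6 for the interaction (0.564). The Arc domain had −16.4 for SAL-LPS minus SAL-SAL (adjusted p = 0.610), and the Nr4a1 region 0.2 kb upstream 19.4 for MOR-SAL minus SAL-SAL (adjusted p = 1.00).

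In hippocampus 0 of 24 member regions were called by limma. The share of all regions called was 0.00617% for MOR-SAL minus SAL-SAL, 0% for MOR-LPS minus SAL-LPS, SAL-LPS minus SAL-SAL and MOR-LPS minus MOR-SAL, and 0.00617% for the interaction. In that order 2, 2, 2, 3 and 1 member regions had an unadjusted p under 0.05. Over all hippocampus regions the share with an unadjusted p under 0.05 was 5.64%, 7.56%, 9.59%, 6.09% and 5.66%. The Btg2 region 11.1 kb downstream had the smallest p in 3 of them, at 21.4 for MOR-LPS minus SAL-LPS (adjusted p = 0.575), −17.9 for SAL-LPS minus SAL-SAL (0.430) and 29.4 for the interaction (0.867). The Egr1 region 2.6 kb upstream had −16.4 for MOR-SAL minus SAL-SAL (adjusted p = 0.845) and the Nr4a1 region over the TSS −23.2 for MOR-LPS minus MOR-SAL (0.788).

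LPS was given 2 h before collection, and at member TSSs no difference passed the test. Of 44 member regions within 1 kb of a TSS, 30 had a difference below 0 for SAL-LPS minus SAL-SAL, with a median of −3.08 (−31.1 to 9.45) and a smallest adjusted p of 0.332. For MOR-LPS minus SAL-LPS 19 of 44 were below 0, with a median of 0.827 (−25.8 to 16.6) and a smallest adjusted p of 0.0851. For MOR-SAL minus SAL-SAL 29 of 44 were below 0, with a median of −2.69 and a smallest adjusted p of 0.705. The comparisons share groups and the regions share libraries, so these counts are not independent.

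Other genes of the response were taken from 4 lists: other immediate early factors, other early effectors and feedback genes, late activity genes, and upstream kinases and factors. In PFC 0 of their 122 regions and in hippocampus 0 of 128 were called in any treatment comparison. In hypothalamus, of 73 regions, 1 ranked higher and 3 lower for MOR-LPS minus SAL-LPS, and 1 higher and 2 lower for MOR-LPS minus MOR-SAL. These were 5.48% of the 73 against 4.31% of all regions, and 4.11% against 3.84%, both near the share over all regions. With marker shares as terms 0 regions of any gene were called in the first comparison and 46 in the second. Scg2, a late gene for a secretory granule protein, was lower in MOR-LPS than in SAL-LPS (−34.0, adjusted p = 0.0274) and MOR-SAL (−36.6, adjusted p = 0.0164) at its TSS. Arl5b, a small GTPase, had −35.8 (adjusted p = 0.00941) and Mapk3, which encodes the kinase ERK1, 31.2 (0.0223) for MOR-LPS minus SAL-LPS. Nefm, a neurofilament subunit, had −40.5 (0.0220) and Per1, a clock gene also induced by CREB, 43.4 (0.00990) for MOR-LPS minus MOR-SAL.

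Gadd45g, a stress-induced gene, was the only gene of the 4 lists called for SAL-LPS minus SAL-SAL (42.7, adjusted p = 0.0333, a region 6 kb from its TSS in hypothalamus). The same region had −31.4 for MOR-LPS minus SAL-LPS (adjusted p = 0.0454) and an interaction of −53.0 (0.0395). A region of Sik1, a CREB feedback kinase, had an interaction of −60.8 (0.0354). Over all hypothalamus regions 0.305% were called for SAL-LPS minus SAL-SAL, 4.31% for MOR-LPS minus SAL-LPS and 1.86% for the interaction. The thalamus share of these groups also differed, and its part was not tested. In striatum, of 332 regions, 2 ranked higher and 2 lower for MOR-LPS minus SAL-LPS, 1.2% against 2.32% of all regions: Creb1 (−24.1, adjusted p = 0.0334) and Ptgs2 (−31.0, 0.0356) were lower, and Mef2a (22.4, 0.0393) and Nfatc3 (26.8, 0.0397) higher. Without the libraries of at least 40% oligodendrocyte genes, 0 striatum regions of any gene were called in that comparison.

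At promoters the 68 other genes also had more calls below than above for hypothalamus, with 8 higher and 26 lower against PFC and 3 higher and 25 lower against hippocampus. For striatum minus hypothalamus 13 were higher and 3 lower. Calls in either direction were 50% of the 68 against 53.4% of all genes for hypothalamus minus PFC, 41.2% against 21.5% for hypothalamus minus hippocampus, and 23.5% against 13.9% for striatum minus hypothalamus. Bdnf, a late activity gene for a neurotrophin, went against this order. Its promoter had a peak in 39 of 44 hippocampus, 32 of 41 hypothalamus, 12 of 42 PFC and 0 of 45 striatum libraries, with mean ranks of 77.5 ± 17.7, 65.7 ± 24.0, 33.1 ± 16.9 and 30.01 ± 6.99 (SD). Nr4a2, a relative of Nr4a1, had a promoter peak in 30 of 44 hippocampus, 11 of 42 PFC, 4 of 41 hypothalamus and 0 of 45 striatum libraries.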

How the data were processed

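H3K27ac peak lists of 174 libraries and 4 consensus lists were used. Per the submitters' processing notes, the authors used Trim Galore 0.6.7, Bowtie2 2.4.5, SAMtools 1.15.1, MACS2 2.2.7.1 and DiffBind 3.10.1 with mm10, and peaks were called per library. Each deposited peak has a −log10 p and −log10 q against local background, a fold enrichment that is a ratio over that background, and a score scaled from the q-value. Only the deposited −log10 p was used, to rank peaks within a library. The 4 deposited consensus lists give positions without values, and with no read counts a test of counts was not run.

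The lists of SAL-LPS males 1-2 and 5-2 in hippocampus are the same and entered once. PFC SAL-SAL female 9-2 had 4371 peaks, under the minimum of 10000, and was left out. In the PFC library labelled MOR-LPS female 12-2 the peak names give animal 12-0; it was kept under its label. This left 42 PFC, 44 hippocampus, 41 hypothalamus and 45 striatum libraries. The number of peaks served as a stand-in for depth, which is unknown, and had medians of 72928.5, 75966, 52991 and 57042.

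Genes and TSSs came from GENCODE M21, and positions are mm10, counted from 1. A site was given the −log10 p of its strongest peak (minimum overlap 1 bp), or 0, and ranked within the library from 0 to 100. Limma 3.58.1 (R 4.3.3) with a mean-variance trend was fitted over all regions of a brain region (group and sex), and over all promoters with a peak in at least 1 library (brain region, treatment and sex). Tests are two-sided with Benjamini-Hochberg adjustment per comparison, called at an adjusted p under 0.05, and the fits were tested on simulated data. Tables were made with Python 3.11.15, pandas 2.3.3, numpy 2.4.6 and scipy 1.17.1. P-values measure the spread between libraries. The same animals gave libraries in several brain regions: residuals of the same animal had a mean correlation of 0.021, and of the same litter 0.0336 in PFC, 0.00141 in hippocampus, −0.0159 in hypothalamus and −0.00143 in striatum.

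The members, gene lists and tests were chosen with earlier results of these data known. Named were all 10 members, regions at a member's TSS, called member regions, the member region of smallest p in each comparison, at most 4 called genes per comparison of the other lists, and the 5 genes of most similar pattern, of which 1 is not reported here. Alternatives were lists of equal length, other promoter windows, overlaps and filters, other covariates, a block by litter or animal, and leaving out each library. Grouping by peak name style, a minimum of 20000 peaks and the limit of 40% of oligodendrocyte genes were chosen after seeing the data.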

Additional observations from a re-analysis of the deposited data

Results flagged for a closer look

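Of 74 groups of 4 to 10 libraries, at promoters and at the called regions, 17 had a library apart from the rest by Dixon's test at 95%. All 17 were promoter ranks. A rate of about 1 of 20 groups by chance holds for independent, normally distributed values. These ranks are bounded and tied, and the same libraries recur across genes, so 17 of 74 cannot be set against that rate. In PFC, MOR-SAL male 13-1 lay low at Arc, Junb, Npas4 and Nr4a1. It had no peak there, and its tied rank was 46.86 at each, in a list of 11306 peaks in which 0% of the neuron genes had a promoter peak among the 10000 strongest. In striatum, MOR-SAL female 16-1 lay low at Arc and Btg2 with a tied rank of 37.66, and SAL-SAL female 10-3 at Arc and Junb with 42.39. In hypothalamus, SAL-SAL male 3-2 lay high at Egr3 and Fosb, at 77.96 for both, and was the only hypothalamus library with an Egr3 promoter peak. PFC SAL-SAL female 9-4, with 100% of the oligodendrocyte list, lay low at Junb (83.2) and Npas4 (57.38). The others were Btg2 in PFC SAL-SAL male 3-4 (27.8), Dusp1 in hippocampus MOR-LPS male 6-0 (44.47) and hypothalamus SAL-SAL female 10-3 (44.19), Egr3 in striatum MOR-SAL male 17-0 (73.73), and Fos in hippocampus MOR-LPS female 15-3 (74.06).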

How the results depend on the processing

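Without read counts and with 7 to 15 libraries a group, only large rank differences could pass. The count of called member regions (treatments) or members (brain regions) was within 1.5 times its value in 203 of 210 treatment and 55 of 66 brain region settings. For MOR-LPS minus SAL-LPS in hypothalamus it went from 1 to 0 in lists of equal length and with marker shares as terms. In striatum it went from 1 to 0 in lists of equal length, without sex, with marker shares and in libraries under 40% of the oligodendrocyte list. For MOR-LPS minus MOR-SAL in hypothalamus it went from 0 to 2 without sex. Leaving out 1 library gave 0 to 2, 0 to 3 and 0 to 1 in these comparisons, in that order, and 0 in the other 17.

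The replicate block, by litter for treatments and by animal for brain regions, gave 1 and 1 called treatment regions and 4, 9, 5, 5, 1 and 6 members called for the 6 brain region pairs. It changed no count of calls. Over all regions, 594 calls in hypothalamus for MOR-LPS minus SAL-LPS became 175 in lists of equal length, 346 with peak name style as a term and 0 with marker shares. For MOR-LPS minus MOR-SAL 529 became 241, 907 without sex and 46 with marker shares. In striatum 1395 became 2 in lists of equal length, 1 without sex, 0 with marker shares and 0 in libraries under 40% of the oligodendrocyte list.

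Brain region counts moved as follows. Hippocampus minus PFC went from 4 members to 1 with a 2 kb window and 0 in SAL-SAL libraries alone, hypothalamus minus PFC from 9 to 5 and striatum minus PFC from 5 to 0 in SAL-SAL alone. Striatum minus hippocampus went from 1 to 2 with 10000 peaks, 2 with 500 bp, 3 with 2 kb, 2 with log10 peaks as a term and 0 in SAL-SAL alone, and striatum minus hypothalamus from 6 to 3 with 10000 peaks and 2 in SAL-SAL alone. SAL-SAL alone has fewer samples, and the cause of the other shifts was not tested. Of 330 values of called promoter differences 286 stayed called, 40 did not and 4 reversed. Fos reversed for hippocampus minus PFC with 10000 peaks (0.366), and with 2 kb for hypothalamus minus PFC (13.8) and striatum minus PFC (0.419). Dusp1 reversed for hypothalamus minus PFC at the gene's annotated 5′ end (0.801), which lies far upstream of its main TSS. Hypothalamus minus PFC for Fosb, Junb, Npas4 and Arc, and hypothalamus minus hippocampus for Fosb, Junb, Egr3 and Npas4, stayed called in 11 of 11 settings.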

Other observations

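The PFC list left out for its length, SAL-SAL female 9-2, held 4371 peaks and had a promoter peak at 0 of the 10 members.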
